A study of Drosophila melanogaster with 6 samples.

Results

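Genes of the sarcomere and of muscle contraction were examined in a comparison of the developing wing and the developing haltere of Drosophila melanogaster. The members were 37 gene names of sarcomere proteins, calcium handling and muscle attachment, and a gene was taken as a member when its name was the name of a row in the authors' deposited table. This held for 26 names, among 7762 genes in all. The names Act79B, Act88F, TpnC47D, TpnC25D, TpnC41C, TpnC4, fln and Zasp67, 8 in all, had no row under any of their names and were not analysed here. Of the other 3 names, Obsc is a second name of Unc-89, which is counted, while fhos and SERCA stood under the names Fhos and Ca-P60A and are described apart from the 26. The list was put together with the fold changes of this same comparison known, so every count, fold change and FDR below is a description of these genes and no independent test of them.

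RNA came from wing imaginal discs (3 samples) and haltere imaginal discs (3 samples), the larval epithelial sacs that form the wing and, one segment further back, the haltere, a balancing organ. All discs came from wandering larvae of the last instar of the Canton S strain with a wild-type genotype, and the labels give no difference between the groups other than the tissue. The labels call the replicates independent biological ones, and the number and sex of the larvae behind each sample are not given in the sources used here. Values exist per gene and not per sample: a log2 fold change between the tissues, a mean expression over both in log2 CPM (read counts scaled to a common library total), a p-value and an FDR, so neither the depth of each library nor the spread between replicates is known.

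A sarcomere is the repeating contractile unit of muscle. Myosin thick filaments slide along actin thin filaments, troponin and tropomyosin block the actin until calcium binds troponin C, and Z-discs and giant elastic proteins hold the filaments in register. In the larva these proteins fill the body wall muscles, which are differentiated. The muscle lineage of the wing disc itself is held by adult muscle precursors, undifferentiated myoblasts that lie under the notum part of the epithelium and build adult muscles later.

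No source used here states which tissue stands on top of the fold change. The homeotic gene Ubx (Ultrabithorax), which marks the haltere disc, stood at -5.22 in the authors' deposited table, so negative values are read throughout as lower in the wing disc than in the haltere disc. The table gives no standard error (SE) either. A rough one was computed for each gene by dividing its log2 fold change by the normal quantile of the authors' p-value, and it is approximate because the test within edgeR that gave that p-value is not stated.

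Of the 26 muscle genes, 11 were called in the authors' deposited table at an FDR under 0.05 (edgeR), and all 11 were lower in the wing disc. Over all 7762 genes 1.34% were called in either direction, and 0.876% were called with a negative sign. The 11 genes were TpnC73F, Mp20, bt, Mlc1, Zasp66, up, Tm2, wupA, Mf, Act57B and Mlc2. Under a Bonferroni adjustment over all rows, 4 of them remained (TpnC73F, up, Act57B and bt) in the authors' deposited table, against 0.644% of all genes. The median log2 fold change was -1.24 over the 26 genes and 0.00047 over all genes of the authors' deposited table. A value below -1 was found in 16 of the 26 genes, against 2.41% of all genes, and 22 of the 26 were below 0, against 49.9% of all genes, in the authors' deposited table. An unadjusted edgeR p-value under 0.05 was found for the 11 genes and 5 more, 16 in all, against 4.32% of all genes in the authors' deposited table. RNA was taken from whole discs, so fewer muscle cells in a sample and less muscle RNA per cell cannot be told apart.

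The 26 genes are not neighbours on 1 chromosome: 2 lie on arm 2L, 6 on 2R, 5 on 3L, 9 on 3R, 3 on X and 1 on chromosome 4. Exons of 8 of them overlap exons of another annotated gene, where reads can be lost as ambiguous in counting. Among the 11 called genes this applies to Act57B alone, which shares bases with a small nucleolar RNA gene.

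**Figure D1:**
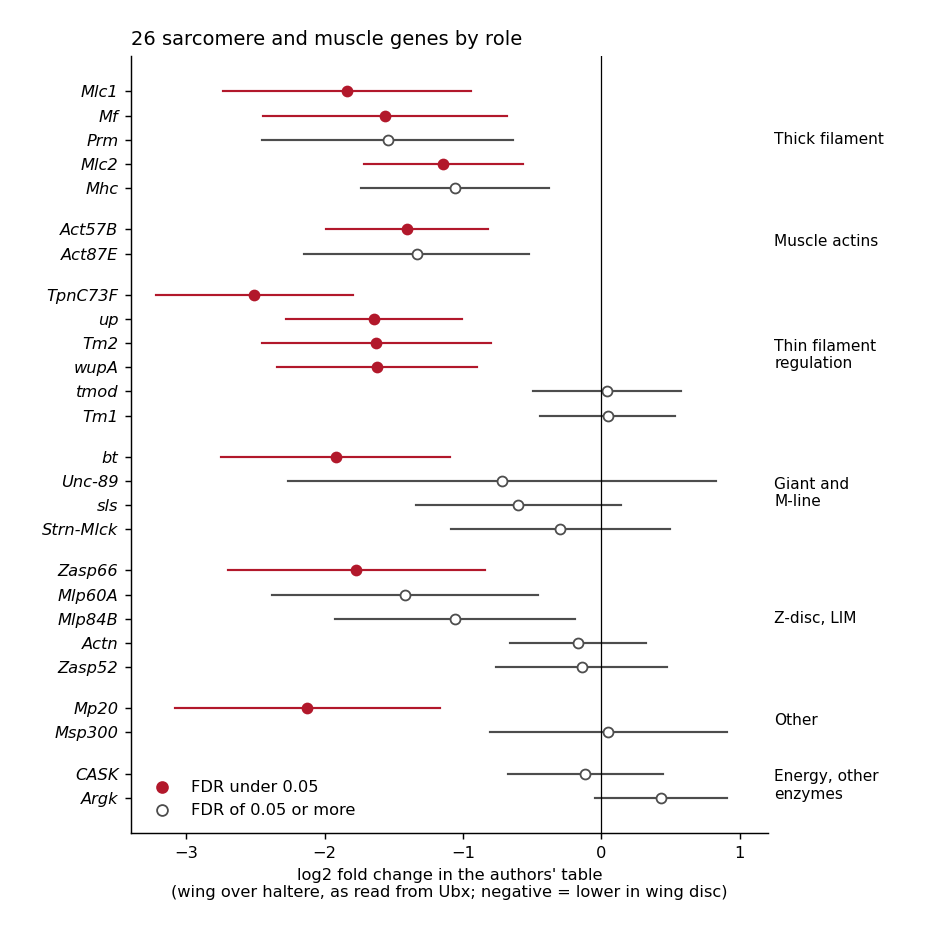
The 26 genes in rows, grouped by role, against the log2 fold change of the authors' deposited table, where negative values are read as lower in the wing disc. Points are the deposited values, filled where the FDR is under 0.05, and lines are rough 95% intervals from the authors' p-values; 16 of the 26 intervals lie wholly below 0 and 10 hold 0.

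All 5 thick filament genes with a row stood below -1 in the authors' deposited table, and 3 of them were called. Mlc1, the essential myosin light chain, stood at -1.84 in the authors' deposited table (rough SE 0.46, edgeR FDR 0.00644), a level 3.57-fold lower in the wing disc. Mf, which encodes the thick filament protein myofilin, was at -1.57 (rough SE 0.45, edgeR FDR 0.039) in the authors' deposited table. Mlc2, the regulatory light chain, was at -1.14 (rough SE 0.29, edgeR FDR 0.0097) in that deposited table, with the smallest rough SE of the 5. The remaining thick filament genes were not called. Prm, paramyosin, was at -1.55 (edgeR FDR 0.0629), and Mhc, the muscle myosin heavy chain, was at -1.06 (edgeR FDR 0.131), in the authors' deposited table. Mf and Prm lay just inside and just outside the FDR threshold with nearly the same fold change.

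Both muscle actins with a row had close values. Act57B was at -1.41 (rough SE 0.30, edgeR FDR 0.000447) in the authors' deposited table, a 2.65-fold lower level in the wing disc. Act87E was at -1.33 (rough SE 0.41, edgeR FDR 0.0866) in the authors' deposited table and was not called. The fly actins are nearly alike in sequence, so reads that fit several of them may have been dropped or split in the authors' counting, and the value of a single actin is uncertain for that reason.

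The troponin complex and muscle tropomyosin were lower in the wing disc together. TpnC73F, a troponin C gene at chr3L:17046063-17048390 on the plus strand (dm6), had the largest change of the 26 genes in either direction. The authors' deposited table gave it a log2 fold change of -2.51 (rough SE 0.36, edgeR FDR 2.4e-09), which is 5.69-fold lower in the wing disc, and its p-value ranked 14 among the 7762 genes. Troponin T, encoded by up (upheld), was at -1.65 (edgeR FDR 9.61e-05) in the authors' deposited table. Troponin I, encoded by wupA (wings up A), was at -1.62 (edgeR FDR 0.00156) in the authors' deposited table. These genes encode the calcium-binding, tropomyosin-binding and inhibitory subunits of troponin, and all were called.

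Neighbouring tropomyosin genes had different values. Tm2, a muscle tropomyosin, was at -1.63 (rough SE 0.42, edgeR FDR 0.0113) in the authors' deposited table. Tm1, which makes both muscle and cytoplasmic isoforms, was at 0.05 (rough SE 0.25, edgeR p-value 0.852) in the authors' deposited table. The genes lie on the same strand of the same arm, Tm1 at chr3R:15278220-15308779 and Tm2 at chr3R:15310193-15315197 (dm6), with 1413 bases between them. Their rough 95% intervals, from -0.44 to 0.53 for Tm1 and from -2.46 to -0.80 for Tm2, did not overlap, and the difference itself could not be tested without values per sample. Counts per gene merge isoforms, so a change in the muscle isoforms of Tm1 under a larger cytoplasmic pool would not be seen in them. The tropomodulin gene tmod, whose product caps thin filaments at their pointed ends, was at 0.04 (edgeR p-value 0.879) in the authors' deposited table.

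Among the 4 genes grouped as giant proteins, 1 was called. It was bt (bent), at chr4:724400-776474 (dm6), which encodes projectin, a titin-related protein. The authors' deposited table gave it a log2 fold change of -1.92 (rough SE 0.42, edgeR FDR 0.000894), or 3.79-fold lower in the wing disc. The gene sls (sallimus), which encodes the other titin-related protein, was at -0.60 (edgeR p-value 0.111) in the authors' deposited table. Obscurin, under the name Unc-89, was at -0.72 and Strn-Mlck at -0.30 in the authors' deposited table, with edgeR p-values of 0.362 and 0.463. The rough interval of Unc-89, from -2.27 to 0.83, was the widest of the 26 genes, at the lowest mean expression among them, 0.27 log2 CPM.

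Genes of the Z-disc and the muscle LIM proteins split. Zasp66, a Z-disc protein with a PDZ domain, was called at -1.77 (rough SE 0.48, edgeR FDR 0.0176) in the authors' deposited table. The muscle LIM protein genes Mlp60A and Mlp84B stood at -1.42 and -1.06 in the authors' deposited table, where their unadjusted edgeR p-values were 0.00381 and 0.0168 and their FDRs 0.199 and 0.587. Zasp52 was at -0.14 and Actn, the actin crosslinker alpha-actinin, at -0.17 in the authors' deposited table, with edgeR p-values of 0.653 and 0.502. Zasp52 and Actn had mean expression of 6.86 and 6.94 log2 CPM, while the others of this group ran from 2.17 to 3.08 log2 CPM.

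Of the remaining members, Mp20, a muscle protein of the calponin family, was at -2.13 (rough SE 0.49, edgeR FDR 0.0019) in the authors' deposited table, a 4.36-fold lower level in the wing disc and the second largest change of the 26 genes. Msp300, a giant nesprin that anchors nuclei to the cytoskeleton, was at 0.05 (rough SE 0.44, edgeR p-value 0.909) in the authors' deposited table. The guanylate kinase family gene CASK was at -0.12 (edgeR p-value 0.683) in that deposited table, and its exons overlap those of a non-coding gene on the same strand. Argk, arginine kinase, the phosphagen enzyme of insect muscle, had the highest value of the 26, 0.43 (rough SE 0.24, edgeR p-value 0.077), in the authors' deposited table. Under their other names, the sarcoplasmic reticulum calcium pump Ca-P60A was at -0.09 and the formin Fhos at 0.37 in the authors' deposited table, with edgeR p-values of 0.735 and 0.402.

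Of the names listed, 7 were set apart for isoforms or roles outside muscle (Tm1, Msp300, Argk, CASK, Actn, fhos and SERCA), a split that was also made with earlier values known. The 5 of them among the 26 members lay between -0.17 and 0.43 in the authors' deposited table, and none was called. The other 21 members had a median of -1.42 in the authors' deposited table, with 11 called and 20 below 0, and only tmod above 0. The split does not show that each of the 21 acts in muscle alone. Rough 95% intervals of 16 of these 21 genes held their common median. The intervals show how loosely most single values are set, and not that the genes share 1 fold change.

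**Figure D2:**
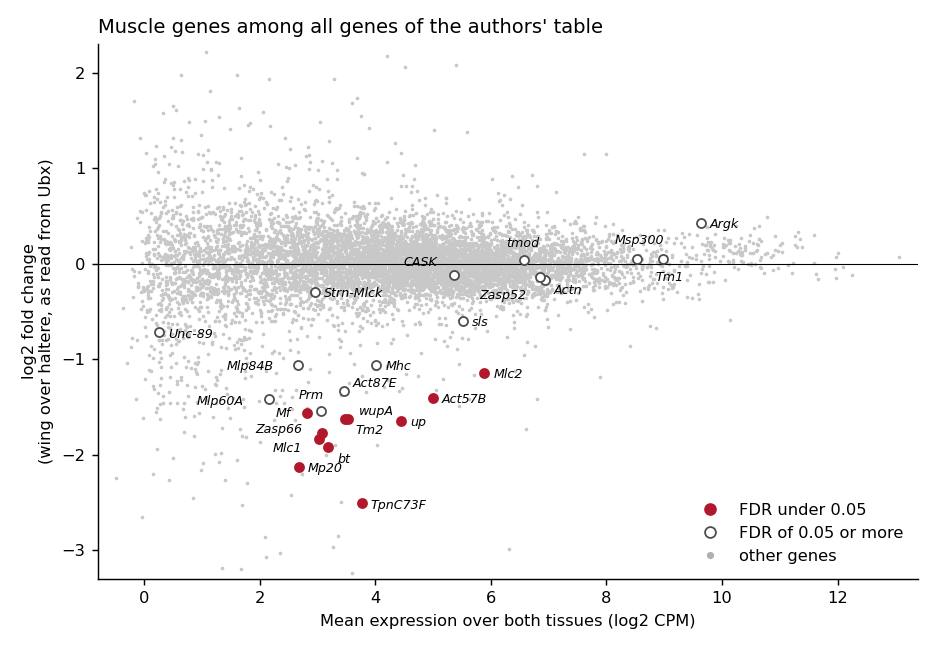
Each point is a gene, with mean expression in log2 CPM across and the log2 fold change of the authors' deposited table up (negative read as lower in the wing disc). The 26 muscle genes are named and filled where the FDR is under 0.05; 33 genes lie beyond the vertical range, none of them a muscle gene.

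Calls were counted by mean expression. Of the 9 muscle genes whose mean expression reached 5 log2 CPM in the authors' deposited table, 1 was called (Mlc2), against 10 of the 17 below it. All 5 members set apart for roles outside muscle are among the 9, so this count largely repeats that split and is no separate result. Over all genes of the authors' deposited table the share called was 1.02% at or above that level and 1.54% below it. Act57B, called, lies right at the limit with 4.997 log2 CPM, so the counts would be 2 of 10 and 9 of 16 with a slightly lower one. Across the 26 genes the fold change and the mean expression of the authors' deposited table had a Spearman rho of 0.60, against 0.015 across all 7762 genes. Log2 CPM is not corrected for gene length. With the mean level per kilobase of exon in its place, the rho across the 26 genes was 0.20. The fold change and the exon length had a rho of 0.64 across the 26 genes, against -0.27 across the 7658 genes with an annotated length. These correlations are descriptions over genes that share the same libraries and were partly chosen for their fold change.

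Levels were compared between genes per kilobase of exon, as the mean over both tissues. On that scale 8 of the 26 muscle genes were above the median gene, which stood at 3.15 log2 CPM per kb. Argk was at 7.82, Tm1 at 5.69 and Mlc2 at 4.69 log2 CPM per kb, the highest levels of the 26. Mlc2 stood well above the other myosin subunits, since Mlc1 was at 2.53 and Mhc at 0.84 log2 CPM per kb. Act57B was at 4.21 and Act87E at 2.46 log2 CPM per kb. In the troponin complex TpnC73F was at 3.68, up at 3.11 and wupA at 2.54 log2 CPM per kb. The 4 genes grouped as giant proteins (Unc-89, Strn-Mlck, bt and sls) had the lowest levels, from -3.46 log2 CPM per kb for Unc-89 to -0.36 for sls. Msp300, the giant nesprin outside that group, was at 2.40 log2 CPM per kb. Union exon length counts every annotated exon once and lowers the level of genes with many alternative exons, and with the longest transcript in its place Tm1 was at 7.37 log2 CPM per kb.

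**Figure D3:**
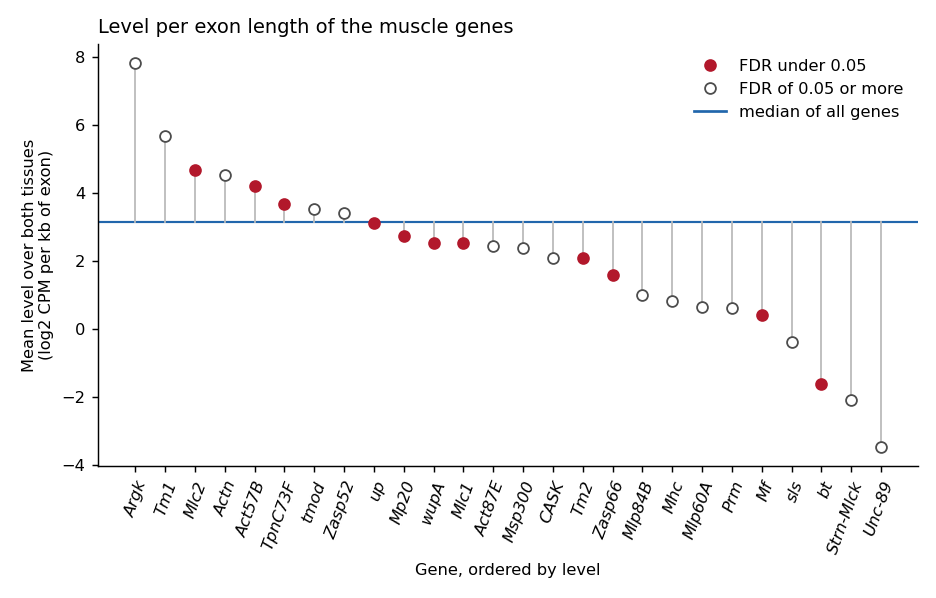
The mean level of each muscle gene over both tissues, in log2 CPM per kb of exon, in falling order; points are filled where the FDR of the authors' deposited table is under 0.05 and the line is the median of all genes, 3.15. Called genes lie between -1.62 for bt and 4.69 for Mlc2.

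Other genes of muscle were read from lists written with earlier results of these data known. In the list of calcium release, membrane channels and glutamate receptors 4 of 18 genes had a row, so the receptors of the larval nerve-muscle synapse and the ryanodine receptor were not analysed here. None of the 4 was called in the authors' deposited table (edgeR, 1 with an unadjusted p-value under 0.05), and the median was 0.03. The gene with the smallest p-value was jp, at -1.94 (edgeR FDR 0.154) in the authors' deposited table. It encodes junctophilin, a protein that ties the muscle membrane to the calcium store, and its mean expression was low, at 0.22 log2 CPM. Calx, a sodium-calcium exchanger, was at 1.07 (edgeR p-value 0.217) in the authors' deposited table.

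The list of sarcomere assembly factors and the dystrophin complex had 14 of 18 genes with a row, a median of -0.07 and no call in the authors' deposited table (edgeR, 2 with an unadjusted p-value under 0.05). These were sals, a protein of thin filament elongation, at -1.52 and tn (thin), a muscle TRIM protein, at -1.46 in the authors' deposited table, where their edgeR FDRs were 0.324 and 0.598. Both had mean expression under 1 log2 CPM, at 0.68 and 0.46. The other 12 genes of that list lay within 0.5 of 0.

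The list of muscle attachment genes, all 14 of which had a row, had a median of -0.01 in the authors' deposited table. It had 2 calls with opposite signs there, 1 of them a tubulin gene (edgeR, 3 with an unadjusted p-value under 0.05). Over all genes 1.34% were called. Tsp (thrombospondin), a matrix protein of tendon cells that binds muscle integrins, was lower in the wing disc at -1.13 (edgeR FDR 0.0014) in the authors' deposited table. The tubulin gene betaTub60D, which is expressed in differentiating muscle and other mesoderm, was higher in the wing disc at 1.15 (edgeR FDR 0.000535) in the authors' deposited table. The gene kon was not called, at 0.89 (edgeR p-value 0.0244, FDR 0.767) in that deposited table. The integrin subunits mys, mew and if and the linker genes rhea, Ilk, parvin and stck lay between -0.21 and 0.11 in the authors' deposited table. None of the 10 myoblast fusion genes with a row was called in the authors' deposited table (edgeR, 0 with an unadjusted p-value under 0.05). Their median was -0.04, and the smallest p-values belonged to sns, at 0.59, and rst, at -0.44, in the authors' deposited table.

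Most markers of the adult muscle precursors had the other sign, though only 2 were called. Of 9 genes with a row, 8 were above 0 in the authors' deposited table, against 3890 of all 7762 genes. Their median was 0.51. The 2 genes called were Him, an inhibitor of muscle differentiation, at 2.55 (edgeR FDR 0.000119), and twi (twist), which keeps myoblasts undifferentiated, at 1.93 (edgeR FDR 0.00501), in the authors' deposited table. Both were thus higher in the wing disc, and over all genes 0.464% were called with a positive sign. The other 7 markers were not called, among them htl at 1.44 and stumps at 0.94 (edgeR FDR 0.278 and 0.223) in the authors' deposited table. Mef2, the activator of muscle structural genes, was at 0.22 (edgeR p-value 0.488) in the authors' deposited table. The difference between the precursor markers and the sarcomere genes was not tested.

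The cytoplasmic relatives of the sarcomere proteins were close to 0. All 18 listed genes of cytoplasmic actomyosin had a row, none was called in the authors' deposited table (edgeR, 0 with an unadjusted p-value under 0.05), and their values ran from -0.27 to 0.20 with a median of -0.01. Act5C and Act42A, the cytoplasmic actins, were at -0.15 and 0.07, and zip, the cytoplasmic myosin heavy chain, and sqh, its regulatory light chain, were at -0.19 and 0.06 in the authors' deposited table.

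**Figure D4:**
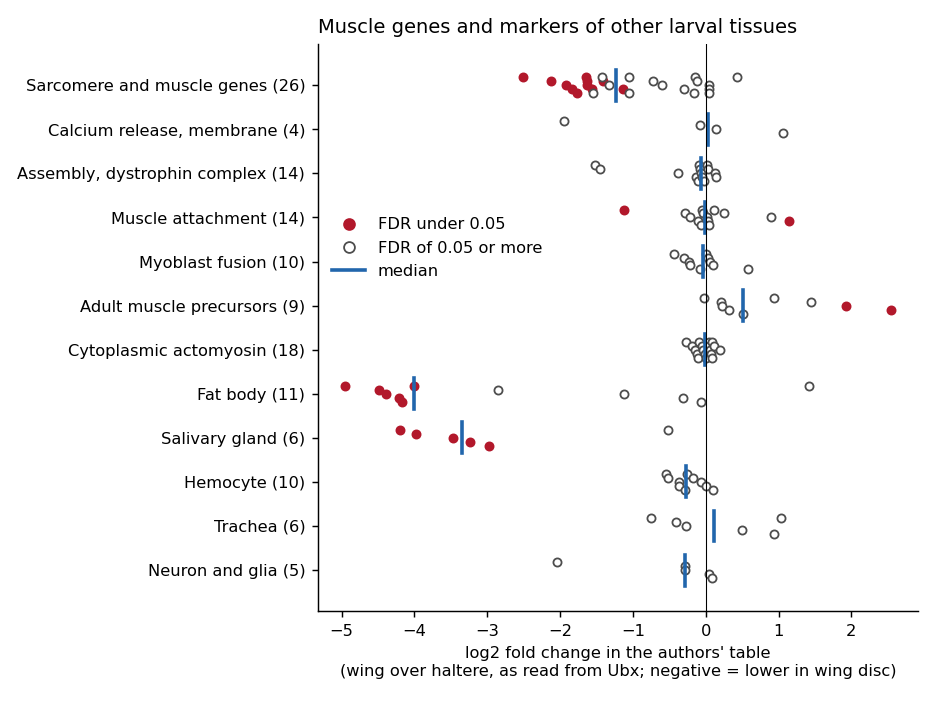
The muscle genes and 11 lists of other genes in rows, each with its number of genes, against the log2 fold change of the authors' deposited table (negative read as lower in the wing disc). Points are genes, filled where the FDR is under 0.05, and bars are medians; the sarcomere median is -1.24, that of the adult muscle precursor markers 0.51 and that of the cytoplasmic actomyosin genes -0.01.

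Most markers of the larval fat body (10 of 11 with a row) and all 6 of the salivary gland with a row were below 0 in the authors' deposited table. Over all genes 49.9% were below 0 and 0.876% were called with a negative sign. The part of these markers in the result was not tested. Of 11 fat body genes with a row, 6 were called and all 6 were lower in the wing disc. The median over the 11 was -4.01 in the authors' deposited table. The larval serum protein genes Lsp1beta and Lsp2 stood at -4.49 and -4.39 in the authors' deposited table. Rfabg, the gene of the main lipid carrier of the blood, listed as apolpp, was at -4.01 (edgeR FDR 1.34e-08), and Fbp1, a serum protein receptor, was at -4.16 (edgeR FDR 0.0097), in the authors' deposited table. Lsp1gamma and Lsp1alpha, at -4.95 and -4.21 in the authors' deposited table, were the other calls, and reads shared between the alike Lsp1 genes make the value of each uncertain. Of the 5 fat body genes not called, Apoltp, a lipid transfer protein, had the opposite sign at 1.41 (edgeR p-value 0.0141, FDR 0.515), while CG3523, listed as FASN1, and Mtp were at -0.31 and -0.06 in the authors' deposited table. Fbp2 was at -2.85 and Ilp6 at -1.13 in the same deposited table. Of 6 salivary gland genes with a row 5 were called, all lower in the wing disc, with a median of -3.35 over the 6 in the authors' deposited table. These were Sgs7 at -3.98, Sgs5 at -4.19, Sgs8 at -3.46, Sgs3 at -3.24 and Eig71Ee at -2.97 in the authors' deposited table. The changes of these called fat body and salivary gland genes were larger than that of any sarcomere gene, and their rough SEs, from 0.50 for Lsp1beta to 1.07 for Fbp1, were wider than those of the 11 called sarcomere genes, from 0.29 to 0.49.

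Lists of blood cell, tracheal and neural genes had no call in the authors' deposited table (edgeR). Their medians were -0.27 for 10 hemocyte genes, 0.11 for 6 tracheal genes and -0.28 for 5 neuron and glia genes with a row. Unadjusted edgeR p-values under 0.05 numbered 0 among the hemocyte genes, where Pxn and srp had the smallest p-values, at -0.52 and -0.54 in the authors' deposited table. The tracheal list had 2, trh at 1.03 and stumps at 0.94 in the authors' deposited table, and stumps, listed there under the name dof, also belongs to the precursor list. Of the 6 tracheal genes 3 were above 0 and 3 below, the latter being btl at -0.76, verm at -0.40 and serp at -0.27 in that deposited table. In the neural list the synaptic vesicle gene Syt1 was at -2.04 (edgeR FDR 0.169) in the authors' deposited table. The next smallest p-value there was that of moody, at -0.29. Syt1 was barely expressed, averaging 0.50 log2 CPM over both tissues, and so was repo, at -0.28 with 0.52 log2 CPM. The better measured elav and nrv2, with 4.88 and 7.32 log2 CPM, stood at 0.08 and 0.04 in that deposited table. With values per gene alone, whether the markers and the sarcomere genes varied together between replicates was not analysed here.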

How the data were processed

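RNA of 3 wing disc and 3 haltere disc samples was made into directional libraries and sequenced as paired ends, per the labels' protocols. The submitters' processing notes name HISAT2, HTSeq, edgeR and the dm6 build; versions, settings, the strand setting of the counting, the filter on low counts and the edgeR covariates are not given in the sources used here. Per the file headers, the authors' deposited table gives a log2 fold change, a mean in log2 CPM, a p-value and an FDR (a second p-value, adjusted) per gene. The deposited FDR equalled Benjamini-Hochberg values over all 7767 rows to within 6.24e-06. Of these rows 5 are summary lines of the read counter, which held 43.3% of the summed CPM; they were left out of all counts of genes, but the CPM scale includes them. There were 0 columns of values per sample, so the planned test on counts was replaced by the authors' FDR.

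Members, roles and lists were chosen with earlier results of these data known. The rule for naming took every member, Ubx, and from each list the called genes and the 2 with the smallest p-value; other genes were named after their values were seen. Of 138 listed genes, 107 had a row, 7 of them by a synonym in RefSeq (assembly Release 6 plus ISO1 MT). Gene positions and exon lengths came from Ensembl release 115 (BDGP6.54, dm6 coordinates). The computation of the adjustment and of the rough SE was checked on simulated normal values. There the rough SE returns its input by construction, so its accuracy for these edgeR p-values was not checked. Protein identity between paralogs, part of the naming rule, was not used here. Computations used Python 3.11.15, pandas 2.3.3 and scipy 1.17.1.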

Additional observations from a re-analysis of the deposited data

How the results depend on the processing

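The alternative thresholds and adjustments act on the authors' p-values and move no gene's fold change; the others change which genes or which length enter a median or count. The 11 calls among the 26 genes became 8 at an FDR under 0.01 (1.03% of all genes), 13 at an FDR under 0.1 (1.61%), and 11 with a minimum log2 change of 1, with readjustment over genes alone or above 1 log2 CPM, and with Fhos and Ca-P60A added. A Bonferroni adjustment left 4 of the 11 (50 of the 104 genes in all, and 7 of 15 in the related lists); a stricter adjustment lowers any such count. An unadjusted p-value under 0.05 was met by 16 of the 26 genes and by 335 genes in all (4.32%). The median log2 fold change of -1.24 ran from -1.42 without the genes set apart for roles outside muscle to -1.06 without actin, tropomyosin and troponin C paralogs. The median level of the 26 genes was 2.43 log2 CPM per kb with all exons and 2.61 with the longest transcript. The additions of Fhos and Ca-P60A, of the unadjusted p-value, of a minimum of 3 log2 CPM and of the related lists were chosen after seeing the data. No paired analysis was possible because only the comparison of the tissues, with nothing per sample, was at hand; DESeq2 and the fits that leave out a replicate were not run for the same reason, so whether 1 library sets a call is not known.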
